A study of Sus scrofa with 40 samples.

Results

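Complex I, the NADH:ubiquinone oxidoreductase of the mitochondrial inner membrane, was followed here through the messages of its nuclear genes in skeletal muscle of the Chalu black pig, a Chinese pork breed. The genes were all entries of the count table whose name begins with NDUF and whose chromosome is not the mitochondrial genome. That rule gave 40 of 21280 genes: 30 subunits of complex I, 8 assembly factors of the NDUFAF series, and NDUFA4 with its paralog NDUFA4L2. The genes lie on 16 chromosomes of the Sscrofa11.1 build, 7 of them on chromosome 2. Of the 40 gene models, 23 overlap another gene model and 17 do not. Whether reads were counted by strand is not stated in the labels or notes, so reads of overlapping models may be shared between them.

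Messenger RNA was sequenced in 4 cuts of the carcass with 10 libraries each: belly (PB), trapezius (TM), which is a shoulder muscle, the hamstring (HM) of the hind limb, and the back muscle longissimus dorsi (LDM). By the labels' protocols all animals were male, shared a sire, were raised alike and had fasted, and the pieces came from the left of the carcass and were trimmed of fascia. The cuts are whole pieces of tissue, so a message that is lower may reflect fewer cells of a type or less RNA per cell, which cannot be told apart here. No cut is named as the reference, and all 6 pairs of cuts were compared.

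Complex I takes electrons from NADH, passes them through a flavin and a chain of iron-sulfur clusters to ubiquinone, and pumps protons across the inner membrane. Its matrix arm holds an N module, where NADH is oxidized, and a Q module, where ubiquinone is reduced. Its membrane arm is built around the ND subunits, which are encoded by mitochondrial DNA, while nuclear DNA encodes all other subunits and the assembly factors that put the modules together. Slow, oxidative muscle fibres are known for a higher mitochondrial content than fast, glycolytic fibres. NDUFA4 was long counted as a complex I subunit and is now regarded as a subunit of cytochrome c oxidase.

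Library totals lay between 12305913 and 17735722 counts. Messages of fibre type differed between the cuts, while the fibres themselves were not counted. All 10 genes of a slow fibre list were higher in PB, TM and HM than in LDM. Of 10 genes of a fast fibre list, 9 were lower in each. The fast fibre gene that did not pass in HM had a log2 change of 1.35 there. Of all genes tested 20.5% were higher in PB, 11.3% in TM and 16.5% in HM than in LDM, and 21.2%, 13.4% and 16.0% lower. The summed FPKM of the slow fibre list (the authors' expression value, scaled by gene length and library total) ran from 7693 to 17797 in PB, 4539 to 29683 in HM, 3726 to 40268 in TM and 2114 to 5636 in LDM. Of 6 endothelial markers, 6 were higher in TM, 5 in HM and 2 in PB than in LDM, with sums of 34.3 to 74.0 FPKM in PB, 48.3 to 143 in HM, 50.0 to 115 in TM and 39.0 to 53.6 in LDM. Of 5 adipocyte markers tested, 1 was higher in each of PB, TM and HM than in LDM. Their log2 changes over LDM were above 0 for 4 in PB, 5 in TM and 1 in HM. Of 4 leukocyte markers tested, 3 were higher in PB and 1 in TM than in LDM, while 1 differed among the 4 cuts. The summed leukocyte FPKM had a lower median in PB (7.23) than in LDM (9.98). Of 6 fibroblast markers, 1 was higher in PB and 1 in HM, and the leukocyte marker LYZ was at 0 in all libraries. The part of fibre type and of these cells in the results below was not tested. The first PB library, PB1, is titled as belly while its tissue field names the back muscle. The eighth, PB8, was the lowest of the 10 PB libraries for 25 of the 37 NDUF genes tested. It also had the highest summed leukocyte markers of PB, 39.5 FPKM against a PB median of 7.23, and the lowest adipocyte and fibroblast sums of PB (28.3 and 57.2 FPKM). The counts of calls in PB are also given without it.

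Levels of different genes were compared per length, in FPKM averaged over all 40 libraries. NDUFA4 was the most abundant at 292 FPKM, followed by the membrane arm subunit NDUFB10 at 130 FPKM, while the membrane arm subunits NDUFA10 and NDUFS5 stood at 119 and 74.4 FPKM. Subunits of the same complex thus differed widely in message level, from NDUFB10 down to NDUFC2 at 1.47 FPKM. The assembly factors, which are needed only while the complex is built, ran from 22.2 FPKM for NDUFAF8 to 0.238 FPKM for NDUFAF2.

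Of the 40 genes, 37 had enough counts to be tested and 3 did not. NDUFB7 had 0 counts in every library, NDUFA11 had 85 counts over all 40 libraries with 8 libraries at 0, and NDUFS8, a core subunit that carries iron-sulfur clusters, had 74 counts with 14 libraries at 0. The NDUFS8 model (ENSSSCG00000037455, chromosome 2 from 4848599 to 4885860, minus strand) overlaps the models of TCIRG1, UNC93B1 and ALDH3B1, and those of NDUFA11 and NDUFB7 overlap 2 and 1 other models. Whether these overlaps set the low counts was not tested, and the 3 genes were left out of every comparison.

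**Figure D1:**
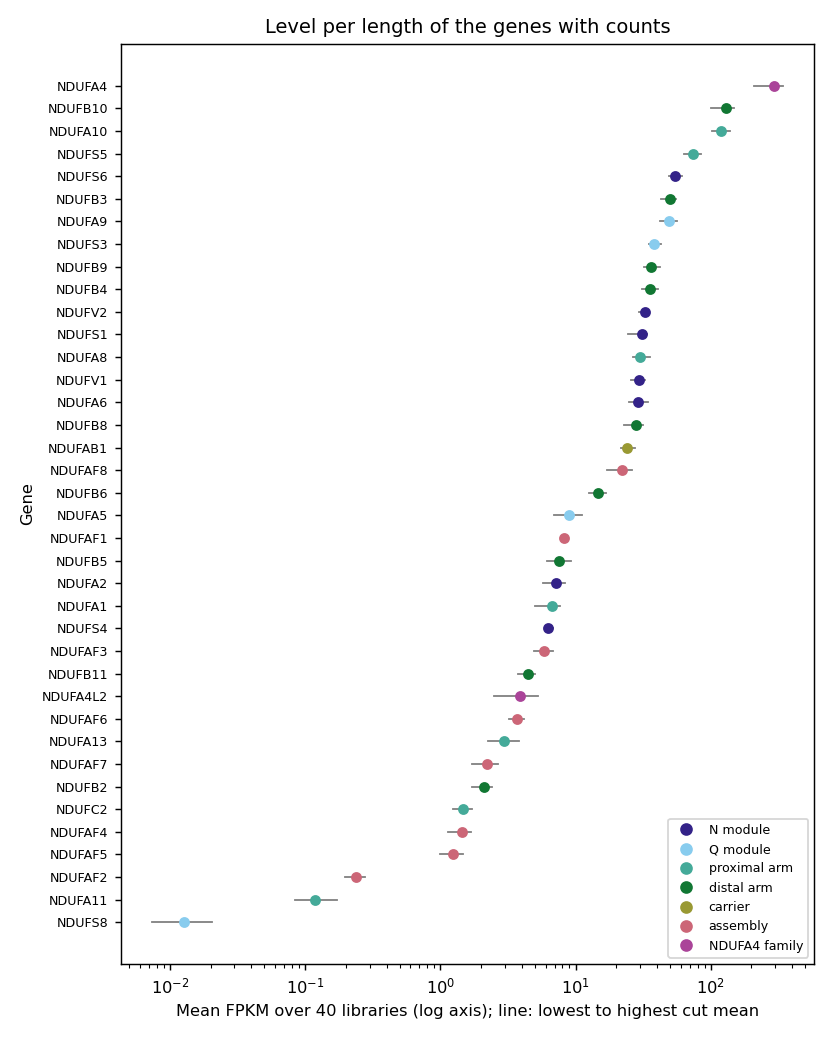
Mean FPKM over 40 libraries (log axis) of 38 genes with counts, coloured by place in the complex; the line spans the lowest to the highest mean among the 4 cuts. NDUFA4 stands highest at 292 FPKM and NDUFAF2 lowest among the tested genes at 0.238, while the spread between cuts is short beside the spread between genes.

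Differences between cuts were small. Over 37 genes and 6 pairs of cuts, none of the 222 log2 changes reached 1 in size (the largest was 0.95), and 31 passed the test (edgeR quasi-likelihood test, Benjamini-Hochberg adjusted p under 0.05 over all genes tested). By pair, 27.0% of the 37 genes passed in PB against LDM, where 41.7% of all genes tested did. The shares were 27.0% and 32.5% in HM against LDM, and 5.41% and 24.7% in TM against LDM. In PB against HM they were 13.5% and 27.6%, and in PB against TM 10.8% and 23.1%. In TM against HM they were 0% and 0.768%. Among the 4 cuts, 13 of the 37 genes differed (35.1%), where 57.2% of the 11713 genes tested across the genome did. In 16 genes at least 1 pair passed, and in 21 no pair did, which does not show that these are level. How many of all genes tested passed in at least 1 pair was not counted. LDM had the lowest mean for 22 of the 37 genes and HM the highest for 16. The shares of all genes tested with such an order were not counted. Single libraries moved many of the 37 together: LDM8 was the lowest of LDM for 18 and TM9 the highest of TM for 18. Among the 17 genes whose models overlap no other, 3 rose in PB, 5 in HM and 1 in TM over LDM, where 20.5%, 16.5% and 11.3% of all genes tested rose. The counts for PB and TM (17.6% and 5.88%) are no higher than those shares.

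**Figure D2:**
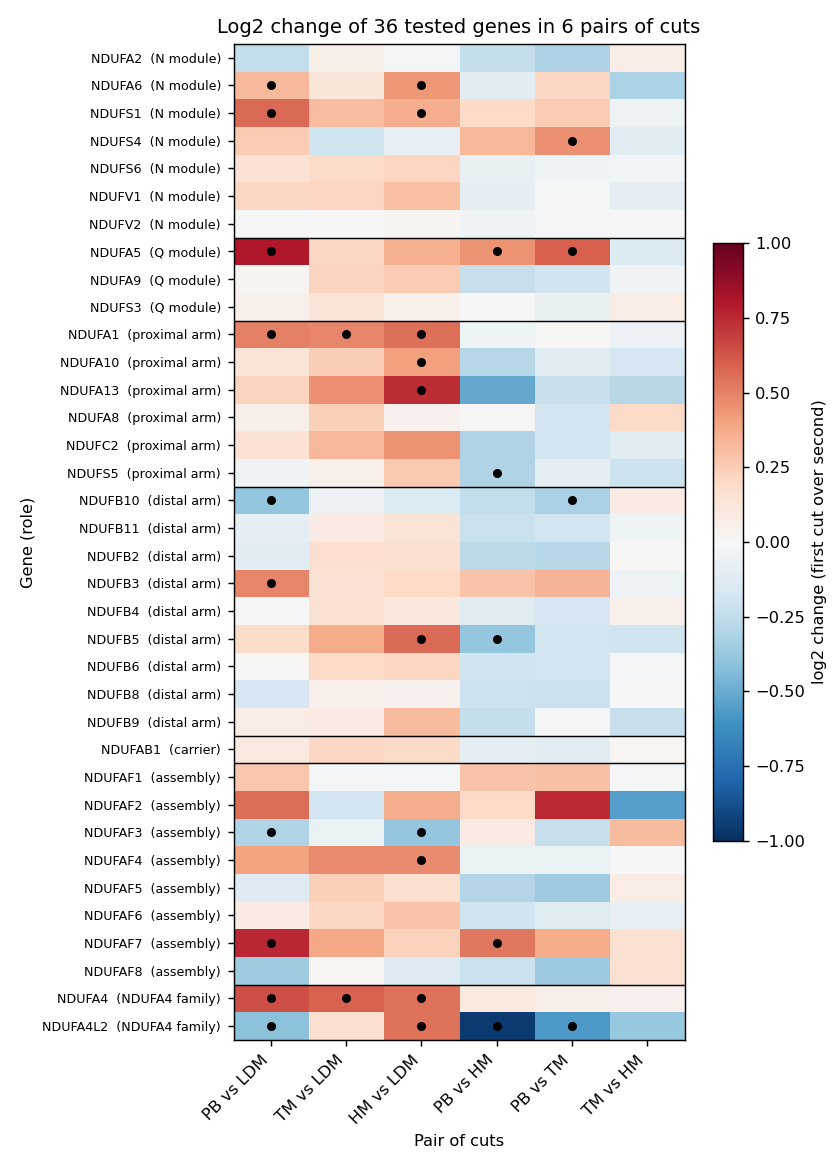
Log2 change of 36 tested genes (rows, grouped by place in the complex) in the 6 pairs of cuts (columns, first cut over second); red is higher and blue lower in the first cut, and a dot marks an adjusted p under 0.05. Most dots lie in the columns of PB and HM against LDM, with 10 each, and TM against HM has none.

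Belly was first compared with the back muscle. In PB against LDM 7 of the 37 genes rose and 3 fell, where 20.5% of all genes tested rose and 21.2% fell. The largest rises were those of NDUFA5 of the Q module (log2 change 0.80), the assembly factor NDUFAF7 (0.75), NDUFA4 (0.64) and the N module core subunit NDUFS1 (0.57). NDUFA1, NDUFB3 and NDUFA6 also rose, and NDUFB10, NDUFA4L2 and NDUFAF3 fell. The median log2 change of the 37 genes was 0.10, beside -0.02 over all genes tested. Without PB8 the counts were 8 higher and 1 lower. Shorter transcripts tended to read lower in PB (across all 11713 genes, which are not independent replicates, Spearman's rho between log2 change and log2 length was 0.16), and the NDUF genes have a median model length of 2009 bases against 3042.5 for all tested. With a length correction 13 genes rose and 0 fell, and NDUFB10, NDUFA4L2 and NDUFAF3 did not pass. The shares of all genes tested are not given for that fit or for the fit without PB8.

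Hamstring against the back gave 9 genes that rose and 1 that fell, where 16.5% of all genes tested rose and 16.0% fell. NDUFA13, NDUFA1 and NDUFA10 of the proximal membrane arm, NDUFB5 of the distal arm, NDUFA6 and NDUFS1 of the N module, NDUFA4, NDUFA4L2 and the assembly factor NDUFAF4 rose, and NDUFAF3 fell. The median log2 change was 0.22, beside 0.08 over all genes. Libraries of the same number deviated together in these 2 cuts, and for most numbers in the other pairs of cuts. With the number as a block in edgeR 12 genes rose and 1 fell. NDUFAF6 (adjusted p = 0.0292), NDUFB9 (0.00799) and NDUFC2 (0.0370) were added and none was lost. The counts before these are from the fit without a block, and the share of all genes passing with the block is not given.

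Trapezius against the back gave 2 genes that rose, NDUFA4 and NDUFA1, and 0 that fell, where 11.3% of all genes tested rose and 13.4% fell. At an unadjusted p under 0.05 there were 7 genes of either direction, and no gene fell by DESeq2 or by limma-voom. The median log2 change of 0.17 lay above that of all genes (0.04), and 32 of the 37 values were above 0. The share of all genes tested above 0 was not counted. The 3 comparisons against LDM share its libraries, so their values are not independent of each other.

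Between belly and hamstring 2 genes were higher in PB, NDUFAF7 and NDUFA5, and 3 lower, NDUFA4L2, NDUFB5 and NDUFS5, where 13.5% of all genes tested were higher and 14.1% lower. Without PB8 there were 4 higher and 1 lower. With the library number as a block 12 genes passed in this pair, where 5 did without it. The share of all genes tested that passed with the block is not given. Between belly and trapezius NDUFA5 and NDUFS4 were higher in PB and NDUFA4L2 and NDUFB10 lower, 2 in each direction, where 13.4% of all genes tested were higher and 9.69% lower. Without PB8 there were 6 higher and 2 lower. Median log2 changes were -0.11 in both pairs, beside -0.05 and -0.06 over all genes.

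Between trapezius and hamstring none of the 37 genes passed in edgeR, with 0 higher and 0 lower and 3 at an unadjusted p under 0.05. DESeq2 and limma-voom also called 0, with 3 and 5 genes at an unadjusted p under 0.05. Few genes of the genome differed in this pair: 0.410% of all tested were higher in TM and 0.359% lower. The median log2 change was -0.03, beside -0.02 over all genes.

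The core subunits carry the flavin, the iron-sulfur clusters and the ubiquinone site. Of NDUFV1, NDUFV2, NDUFS1 and NDUFS3, only NDUFS1 passed in a pair of cuts. NDUFV2 (chromosome 6 from 98815882 to 98852576, minus strand), which holds an iron-sulfur cluster beside the flavin site, had the smallest changes of these 4. The lowest, median and highest libraries were at 60.6, 79.3 and 94.6 CPM (counts scaled to library size by TMM) in LDM, 61.6, 80.2 and 94.2 in HM, 65.3, 77.4 and 93.7 in TM and 45.8, 77.4 and 93.7 in PB. The 4 ranges overlap almost wholly apart from PB8, the PB library at 45.8. The log2 change of PB against LDM was -0.01 with a 95% interval from -0.22 to 0.20, and the largest change of the 6 pairs was -0.03, in PB against HM.

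NDUFV1 (chromosome 2 from 4958508 to 4964208, minus strand), the subunit that binds NADH and the flavin, ran from 27.3 to 61.6 CPM in PB (median 45.9), 31.5 to 70.4 in HM (49.8), 29.7 to 65.0 in TM (48.0) and 27.1 to 52.5 in LDM (40.2). The ranges overlap in every pair, and no pair passed. The change nearest to the threshold was HM against LDM at 0.30 ± 0.15 (SE, adjusted p = 0.109), which passed with a length correction and in limma-voom. NDUFS3 (chromosome 2 from 15031149 to 15036880, minus strand), a core subunit of the Q module, stood at 25.3, 37.9 and 44.4 CPM in the lowest, median and highest PB library, 27.5, 35.6 and 50.6 in HM, 28.8, 39.4 and 48.7 in TM and 27.0, 34.7 and 47.8 in LDM. All ranges overlap, and PB8 was the lowest of all 40 libraries. No pair passed, and for PB against LDM the 95% interval of the log2 change was -0.19 to 0.29. With a length correction NDUFS3 passed in that pair.

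NDUFS1 (ENSSSCG00000016127, chromosome 15 from 109409770 to 109451676, minus strand), the largest iron-sulfur subunit of the N module, was the core subunit that changed. Libraries stood, from lowest over median to highest, at 85.0, 185 and 216 CPM in PB, 88.6, 156 and 214 in HM, 109, 145 and 189 in TM and 85.1, 117 and 156 in LDM. Without PB8, at 85.0, the PB libraries start at 145, within the LDM range. NDUFS1 rose in PB over LDM by 0.57 ± 0.14 (adjusted p = 0.00123), a fold of 1.48. Matched by library number, whose meaning the labels do not give, PB exceeded LDM in 9 of 10 cases; such counts are given as a description. In HM over LDM it rose by 0.37 ± 0.14 (adjusted p = 0.0397), a call lost with a length correction (highest adjusted p 0.109) and on leaving out any of 13 libraries (up to 0.0943). EEF1B2, whose model overlaps it on the other strand, went the other way, -0.71 ± 0.09 in PB against LDM.

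Accessory subunits of the N and Q modules surround this core. Of 9 N module genes tested (7 of them under the rule), 2 rose in PB and 2 in HM over LDM (22.2% each), near the shares of all genes tested (20.5% and 16.5%). NDUFS4 (chromosome 16 from 32874450 to 32987828, plus strand), an accessory N module subunit, was higher in PB than in TM: its libraries ran from 14.6 to 25.5 CPM in PB (median 22.0) and from 10.98 to 20.2 in TM (15.03), beside 13.1 to 22.6 in LDM (18.0) and 10.3 to 24.3 in HM (17.3). The change was 0.45 ± 0.13 (adjusted p = 0.0104), in the same direction in 10 of 10 numbered pairs, and the ranges overlap. NDUFA6, which docks the acyl carrier protein onto the matrix arm, rose in HM (0.44 ± 0.12, adjusted p = 0.00581) and PB (0.33 ± 0.12, adjusted p = 0.0293) over LDM. The second call did not pass without LDM3, LDM4 or PB6. Among the other N module genes, NDUFA2 and NDUFS6 passed in no pair. With a length correction NDUFS6 passed in PB, TM and HM against LDM.

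NDUFA5 (ENSSSCG00000037869, chromosome 18 from 23881867 to 23924133, plus strand), an accessory subunit of the Q module, had the largest rise of all complex I subunits in PB. Its lowest, median and highest library stood at 35.5, 48.5 and 77.6 CPM in PB, 32.0, 37.4 and 49.6 in HM, 22.1, 30.8 and 54.2 in TM and 13.5, 30.7 and 44.8 in LDM. PB lay above the other cuts in its median and its highest library, while its lowest library falls within all 3 other ranges. NDUFA5 was higher in PB than in LDM by 0.80 ± 0.17 (adjusted p = 0.000327, a fold of 1.75, 10 of 10 numbered pairs). It was also higher than in TM by 0.59 ± 0.17 (adjusted p = 0.0107) and than in HM by 0.45 ± 0.17 (adjusted p = 0.0474). The difference from HM was lost without any of 14 libraries (adjusted p up to 0.108), PB1 among them. The NDUFA5 model overlaps IQUB and SLC13A1 on the same strand. NDUFA9, at the junction of the arms, passed in no pair, though limma-voom called it in HM against LDM.

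**Figure D3:**
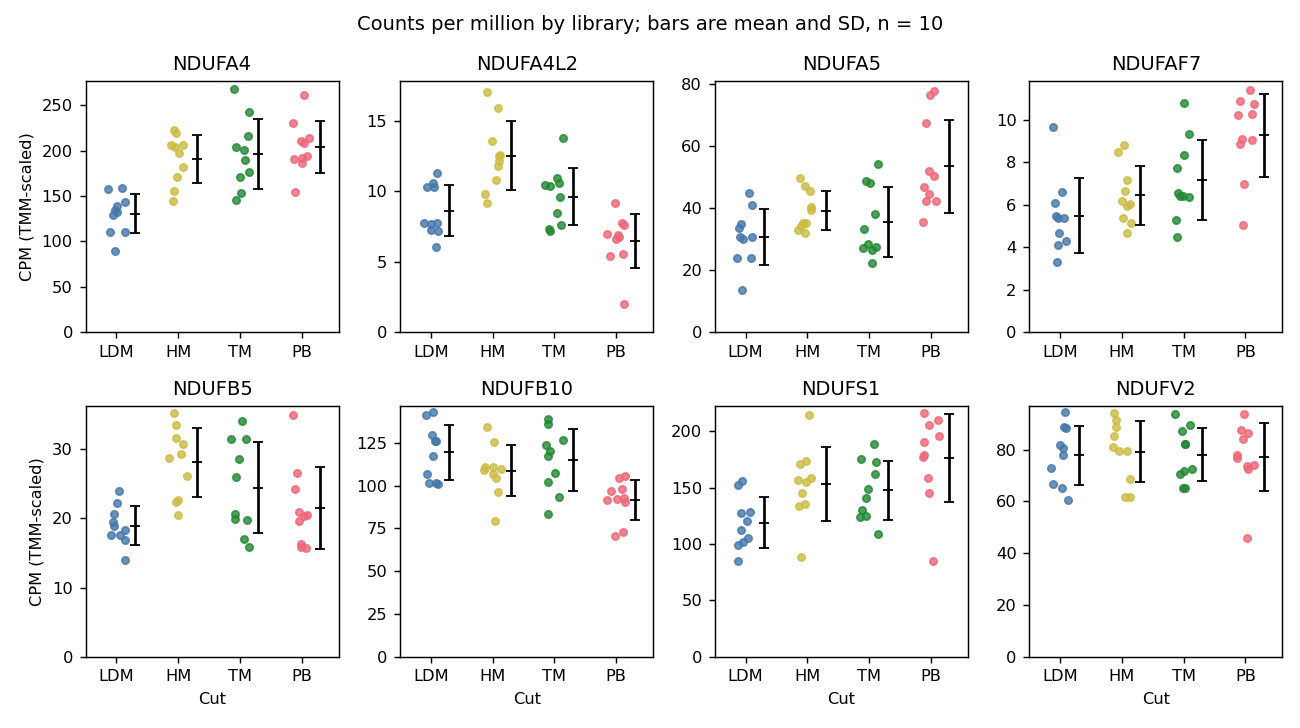
CPM (counts scaled to library size by TMM) of 8 genes in each of the 40 libraries by cut; points are libraries and bars the mean and SD over 10 libraries, and each axis starts at 0. NDUFA4 is lowest in LDM, NDUFA5 and NDUFAF7 are highest in PB, and NDUFA4L2 is lowest in PB. NDUFV2 passed in no pair, and its lowest library is PB8 at 45.8 CPM.

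The proximal membrane arm surrounds ND1 and ND2. Of 7 genes tested there, 1 of them (NDUFA3) outside the naming rule, 4 rose in HM over LDM, where 16.5% of all genes tested did, with a median log2 change of 0.45 beside 0.08 over all genes. In PB and in TM 1 of the 7 rose over LDM. NDUFA1, a small subunit of that arm encoded on the X chromosome (from 98218876 to 98223796, plus strand), rose in all 3 cuts over LDM. The lowest, median and highest libraries were at 7.10, 10.9 and 14.3 CPM in PB, 8.41, 10.5 and 14.7 in HM, 5.66, 10.9 and 16.1 in TM and 5.20, 8.14 and 9.53 in LDM. Each range overlaps that of LDM, while the 3 other medians lie above the highest LDM library. The changes were 0.55 ± 0.16 in HM (adjusted p = 0.00719), 0.51 ± 0.16 in PB (0.00951) and 0.49 ± 0.16 in TM (0.0192), and the last did not pass without TM9 (0.0560).

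NDUFA13 (chromosome 2 from 58399789 to 58410495, minus strand), also known as GRIM-19, ran from 2.81 to 9.35 CPM in PB (median 6.84), 6.71 to 19.1 in HM (8.26), 5.48 to 12.8 in TM (7.62) and 4.27 to 9.06 in LDM (5.18). The highest HM library, HM5, stands at 19.1, and the ranges overlap in every pair. NDUFA13 rose in HM over LDM by 0.73 ± 0.20 (adjusted p = 0.00546), the largest change of any NDUF gene in that pair. NDUFA10, a matrix-facing subunit of the same arm, rose by 0.41 ± 0.14 (adjusted p = 0.0188). NDUFS5 (chromosome 6 from 94913076 to 94919452, plus strand), on the intermembrane side, ran from 29.1 to 49.5 CPM in PB (median 44.7), 34.2 to 69.4 in HM (55.2), 34.0 to 58.0 in TM (44.6) and 37.05 to 56.6 in LDM (42.6), with ranges that overlap. It was lower in PB than in HM by -0.30 ± 0.11 (adjusted p = 0.0404), a call lost under 7 of 13 alternatives (adjusted p up to 0.227) and without any of 23 libraries, PB8 among them.

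In the distal membrane arm, around ND4 and ND5, 3 of the 9 genes tested under the rule passed in any pair, NDUFB3, NDUFB5 and NDUFB10. With NDUFB1, which is outside the rule, 10 genes were tested. Of these 20% passed in PB against LDM, where 41.7% of all genes tested did. In HM against LDM, PB against HM and PB against TM 10% passed, beside 32.5%, 27.6% and 23.1% of all genes. NDUFB5 (chromosome 13 from 117656406 to 117678537, plus strand) ran from 15.7 to 35.0 CPM in PB (median 20.4), 20.5 to 35.2 in HM (29.0), 15.8 to 34.0 in TM (23.3) and 14.0 to 24.0 in LDM (18.6). HM and LDM share only the span from 20.5 to 24.0, and TM and PB reach over both. It rose in HM over LDM by 0.57 ± 0.14 (adjusted p = 0.00266, 10 of 10 numbered pairs). Its lower value in PB than in HM, -0.38 ± 0.14 (adjusted p = 0.0421), was lost under 7 of 13 alternatives and without any of 24 libraries (adjusted p up to 0.127). NDUFB3 rose in PB over LDM by 0.49 ± 0.14 (adjusted p = 0.00649), with libraries from 34.0 to 77.2 CPM in PB and 25.7 to 50.3 in LDM.

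NDUFB10 (chromosome 3 from 40003109 to 40005589, minus strand), the most abundant complex I subunit per length, went down in PB instead. Libraries stood, from lowest over median to highest, at 70.6, 92.4 and 105 CPM in PB, 79.4, 109 and 134 in HM, 83.7, 119 and 139 in TM and 101, 122 and 143 in LDM. Only the upper end of PB reaches the LDM range. It fell by 0.38 on the log2 scale in PB against LDM (adjusted p = 0.00196, 0 of 10 numbered pairs higher) and by 0.33 against TM (adjusted p = 0.0137). With the length correction neither passed (adjusted p = 0.0987 and 0.0980 at the highest). The call against TM was also lost with the mitochondrially encoded genes out of the scaling and without LDM5, LDM7, LDM9 or HM9. RPL3L, which overlaps NDUFB10 on the other strand, was lower in PB than in LDM by -0.42 ± 0.11 and stood at 0.05 ± 0.11 against TM. NDUFAB1, the mitochondrial acyl carrier protein, passed in no pair, with log2 changes from -0.11 to 0.21.

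Assembly factors differed in direction. NDUFAF7 (ENSSSCG00000008494, chromosome 3 from 102939637 to 102964165, minus strand), a methyltransferase that acts early in assembly, stood at 3.32, 5.36 and 9.65 CPM (lowest, median and highest library) in LDM, 4.64, 6.09 and 8.83 in HM, 4.47, 6.49 and 10.8 in TM and 5.04, 9.66 and 11.4 in PB. The PB median is level with the highest LDM library, LDM7, and the ranges of all cuts overlap. It rose in PB over LDM by 0.75 ± 0.17 (adjusted p = 0.000426) and over HM by 0.52 ± 0.17 (adjusted p = 0.0159). PRKD3, which overlaps it on the other strand, was higher in PB than in LDM and HM by 0.87 ± 0.19 and 0.84 ± 0.19, and its part in the NDUFAF7 counts was not tested.

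NDUFAF3 (chromosome 13 from 31656946 to 31659221, plus strand), which acts in early assembly of the Q module, ran from 6.21 to 12.1 CPM in PB (median 9.95), 6.85 to 10.7 in HM (9.33), 8.88 to 13.8 in TM (11.5) and 9.40 to 18.0 in LDM (11.9). HM lies low with a narrow range that still overlaps LDM. It fell in HM against LDM by 0.38 (adjusted p = 0.0140, lower in 10 of 10 numbered pairs). The change in PB against LDM, -0.30 ± 0.12 (adjusted p = 0.0428), was lost under 11 of 13 alternatives and without any of 22 libraries (adjusted p up to 0.271). QRICH1, on the other strand, was lower in both pairs, by -0.35 ± 0.09 in HM and -0.51 ± 0.09 in PB. NDUFAF4, the partner of NDUFAF3 in assembly, went the other way in HM, 0.47 ± 0.18 (adjusted p = 0.0463), a call lost under 7 of 13 alternatives and without any of 18 libraries. NDUFAF1, NDUFAF2, NDUFAF5, NDUFAF6 and NDUFAF8 passed in no pair in the main fit. NDUFAF1 came close in PB against LDM, at 0.27 ± 0.12 (edgeR adjusted p = 0.0603, higher in 9 of 10 numbered pairs). That change passed with RLE, DESeq2, limma-voom, no filter, the pair alone and mitochondrially encoded genes out of the scaling. It also passed with the block, the length correction and both. NDUFAF2, NDUFAF6 and NDUFAF8 passed in some pairs under some alternatives. NDUFAF2, with 81 to 110 counts per cut over 10 libraries, could show only large changes: its 0.75 ± 0.32 in PB against TM did not pass.

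NDUFA4 (ENSSSCG00000024313, chromosome 9 from 80637087 to 80644326, minus strand), now placed in cytochrome c oxidase, gave the lowest adjusted p of the 37 genes among the 4 cuts (3.29e-05). Its lowest, median and highest library stood at 154, 201 and 261 CPM in PB, 144, 200.2 and 223 in HM, 145, 195 and 268 in TM and 89.6, 134 and 159 in LDM. LDM is low, and only its highest libraries reach the lowest of the other 3 cuts, which differed from each other by at most 0.10 on the log2 scale. The gene rose over LDM by 0.64 ± 0.11 in PB (adjusted p = 1.82e-05), 0.59 ± 0.11 in TM (0.000163) and 0.54 ± 0.11 in HM (0.000290), a fold of 1.56 in PB. It was higher in 10, 9 and 10 of 10 numbered pairs. Its model overlaps no other.

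NDUFA4L2 (ENSSSCG00000027621, chromosome 5 from 22535740 to 22549354, minus strand), a paralog of NDUFA4 known as a hypoxia-induced gene, had a different order of the cuts. The lowest, median and highest libraries were at 1.98, 6.83 and 9.13 CPM in PB, 9.16, 12.3 and 17.1 in HM, 7.20, 9.97 and 13.7 in TM and 6.07, 7.75 and 11.3 in LDM. HM lies highest and PB lowest. The libraries of PB and HM did not overlap, by a narrow margin: the highest PB library stood at 9.13 CPM and the lowest HM library at 9.16. It was the single such case among the 222, and the share of such cases over all genes tested was not counted. NDUFA4L2 was lower in PB than in HM by -0.95 ± 0.17 (adjusted p = 4.13e-05, a fold of 0.516) and than in TM by -0.57 ± 0.17 (adjusted p = 0.0101), and it rose in HM over LDM by 0.54 ± 0.16 (adjusted p = 0.00989). Without PB8, at 1.98 CPM, the change from HM was -0.85 (adjusted p = 1.79e-05). Its change in PB against LDM, -0.41 ± 0.17 (adjusted p = 0.0427), was lost under 11 of 13 alternatives and without any of 21 libraries. The model overlaps STAC3 on one strand and SHMT2 on the other. In PB against HM these stood at -0.24 ± 0.13 (did not pass) and -0.36 ± 0.12 (adjusted p = 0.0257).

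The 7 ND genes of mitochondrial DNA, the partners of these nuclear genes in the same complex, followed another course. All 7 were higher in PB than in each other cut, with median log2 changes of 2.39 against LDM, 1.77 against TM and 1.28 against HM. All 7 rose in HM over LDM (median 1.19) and 6 of 7 in TM over LDM (median 0.69). ND2, a proton-pumping core subunit, stood at 3858 to 8493 CPM in PB, 1531 to 2701 in HM, 852 to 2318 in TM and 404 to 1134 in LDM. The PB libraries of ND2 lie above all others. Its log2 change in PB against LDM was 2.93 ± 0.20 (adjusted p = 7.52e-14), ND5 changed by 3.28 ± 0.26 and ND4 by 2.39 ± 0.20. Between TM and HM 0 of 7 passed in edgeR at a median of -0.56, with all 7 at an unadjusted p under 0.05, and DESeq2 called 0 and limma-voom 4 lower in TM.

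Within a library, the median FPKM of the 7 ND genes was set against the median FPKM of the 4 nuclear core subunits NDUFV1, NDUFV2, NDUFS1 and NDUFS3. The ratio ran from 11.2 to 41.6 in LDM (median 20.5), 23.0 to 45.3 in TM (32.3), 31.4 to 74.7 in HM (47.8) and 54.3 to 215 in PB (139.8). PB lies above every LDM and TM library and overlaps HM only through PB1 at 54.3; without PB1 the lowest PB ratio is 81.2, above all of HM. The highest PB ratio, 215, is that of PB8, in which the nuclear median is the lowest of all 40 libraries (14.7 FPKM). The ND medians alone ran from 363 to 975 FPKM in LDM and from 1991 to 5471 in PB, while the nuclear medians ran from 22.5 to 39.2 and from 14.7 to 38.9.

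**Figure D4:**
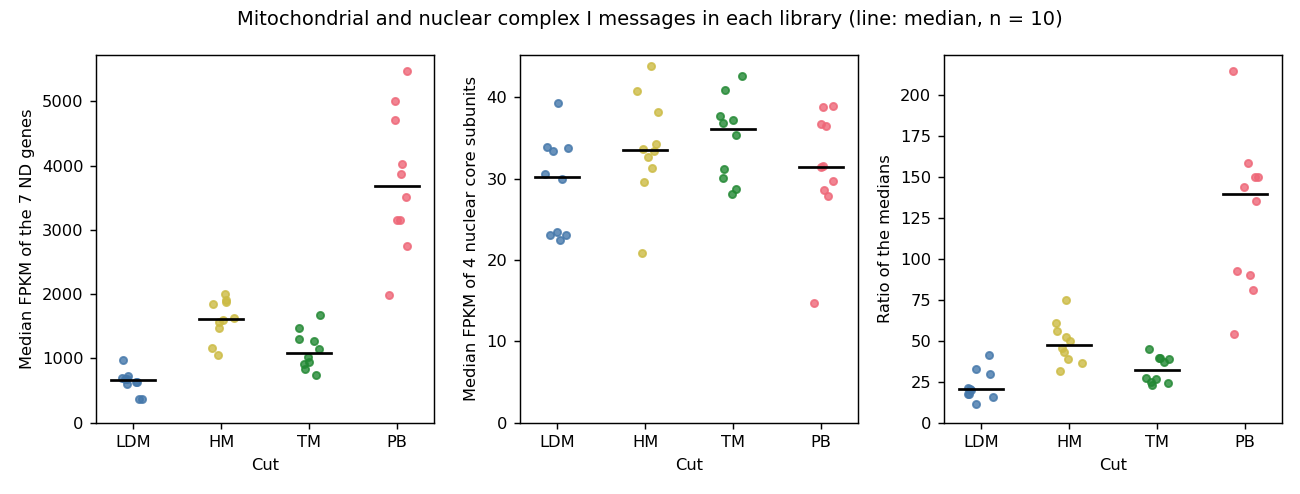
Median FPKM of the 7 ND genes (left), median FPKM of 4 nuclear core subunits (middle) and their ratio (right) in each of the 40 libraries by cut; points are libraries and lines the median of 10, and each axis starts at 0. The ND values and the ratio are highest in PB (ratio median 139.8 against 20.5 in LDM), while the nuclear values overlap among all 4 cuts.

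Complex I subunits that the naming rule leaves out were looked at beside these: NDUFA3, NDUFA12, NDUFB1, NDUFS7 and NDUFV3 carry no name in the count table and were named through reference tables. NDUFV3, an accessory N module subunit, was lower in PB than in HM by -0.54 ± 0.13 (adjusted p = 0.00180) and than in TM by -0.43 ± 0.13 (adjusted p = 0.0125), with PB libraries from 45.1 to 89.2 CPM, HM from 69.3 to 143 and TM from 69.3 to 115. NDUFA3 rose in HM over LDM by 0.50 ± 0.19 (adjusted p = 0.0336) and was lower in PB than in HM by -0.51 ± 0.19. The ranges of both genes overlap in these pairs. NDUFS7, the core subunit with the last iron-sulfur cluster before ubiquinone, NDUFA12 and NDUFB1 passed in no pair.

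Of 9 further assembly factors tested, 3 differed among the cuts (33.3%, below the 57.2% of all genes tested), and 2 rose and 2 fell in PB against LDM (22.2% each, near the 20.5% and 21.2% of all genes). TMEM126B, which helps to build the membrane arm around ND2, fell in HM against LDM by 0.71 (adjusted p = 0.00625) and was higher in PB than in HM by 0.69 ± 0.20. NUBPL, which supplies iron-sulfur clusters to complex I, rose in PB over LDM by 0.64 ± 0.18 (adjusted p = 0.00471). ECSIT, a partner of NDUFAF1, rose over LDM in PB by 0.31 ± 0.11 and in TM by 0.36 ± 0.11 (adjusted p = 0.0276 and 0.0174).

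The nuclear subunits of complexes II to V were set beside these. Of 39 genes in that list, 31 were tested, and 6 rose in PB, 7 in HM and 11 in TM over LDM, at median log2 changes of 0.12, 0.21 and 0.22. As shares these are 19.4%, 22.6% and 35.5%, beside 20.5%, 16.5% and 11.3% of all genes tested. PB was lower than HM for 1 gene and than TM for 2 (3.23% and 6.45%), below the 14.1% and 9.69% of all genes tested. ATP5ME, a subunit of ATP synthase, rose in HM by 0.93 ± 0.15, in PB by 0.65 ± 0.15 and in TM by 0.62 ± 0.15, with libraries at 10.1 to 19.0 CPM in LDM and 16.0 to 41.7 in HM. COX5B of cytochrome c oxidase rose in HM over LDM by 0.57 ± 0.13 and was lower in PB than in HM by -0.42 ± 0.13. UQCRFS1, the iron-sulfur protein of complex III, rose in HM by 0.56 ± 0.13. These genes were named by the smallest adjusted p among the cuts.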

How the data were processed

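The authors deposited a table of whole-number read counts per gene and, beside them, FPKM values, per the file headers. Tools listed in the submitters' processing notes, without settings, are HISAT2 2.0.5, HTSeq 0.9.1 and cutadapt 1.15, with the build Sscrofa11.1. The deposited FPKM equal the counts scaled by length and library total for 100% of values (relative tolerance 0.001) and were used only for levels per length. Every line carries a gene identifier (0 do not), 5360 identifiers were left without a symbol after the reference tables were read, and 0 columns of values lack a sample.

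Counts of all 40 libraries were fitted in edgeR 4.0.16 (R 4.3.3): TMM scaling, the filterByExpr filter by cut (11713 genes left), a robust quasi-likelihood fit with the cut as the factor, 6 contrasts and an F test, and Benjamini-Hochberg adjustment over all genes tested, threshold 0.05. The script was tested on simulated data. CPM are TMM-scaled, and ± after a log2 change is its SE. Intervals are at 95%.

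The genes and lists were chosen with earlier results of these data known. Values in every cut go to the 3 genes with the highest and the 3 with the lowest log2 change among those passing in each pair, the core subunits, NDUFA4, NDUFA4L2 and the 5 with the smallest adjusted p among cuts; of other lists, up to 3 genes by smallest adjusted p are named. The values of 1 of the 40 genes are not reported here, though it stays in the fit and the counts. Genes given only a change and its p are outside that rule and were added after their values were seen.

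Alternatives were RLE and upper-quartile scaling, scaling without mitochondrially encoded genes, DESeq2 1.42.0, limma-voom with quality weights (limma 3.58.1), no filter, a filter at 1 CPM in 10 libraries, a gene length correction, the library number as a block, block and length correction together, each pair alone, the fit without PB1, without the 4 libraries HM6, HM9, TM3 and TM7, and without each single library. Libraries are numbered 1 to 10 in each cut, and the labels do not say what a number stands for. Same-numbered libraries correlated in their deviations over 1000 genes at more than 0.1 in 10 of 10 pairs for HM and LDM (0.214 to 0.497). By the rule used here the numbers were thus taken to pair these cuts, from the data. In the other 5 pairs of cuts 8 or 9 of 10 exceeded 0.1, with the highest median, 0.389, in PB against HM. The main fit has no block in any pair, HM against LDM included, and the block was run only as an alternative. The labels name no separate animals for the libraries of a cut, so p-values measure the spread between these libraries, which may be in part technical.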

Additional observations from a re-analysis of the deposited data

Results flagged for a closer look

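In 64 groups of 10 libraries (16 genes in 4 cuts), 7 held a library that stood far from the rest. Chance gives about 1 in 20 for independent groups, while these groups share their libraries. Of these 7, 5 were PB8. NDUFS1 stood at 85.0 CPM in PB8 against 145 to 216 in the other PB libraries, NDUFV2 at 45.8 against 72.6 to 93.7, NDUFS5 at 29.1 against 39.6 to 49.5, NDUFA13 at 2.81 against 5.22 to 9.35 and NDUFA4L2 at 1.98 against 5.38 to 9.13. All 5 values of PB8 are low. PB8 also has the highest leukocyte marker sum of PB and the lowest adipocyte and fibroblast sums, and the cause was not tested. NDUFA5 stood at 13.5 CPM in LDM10 against 23.8 to 44.8 in the other LDM libraries. NDUFAF3 stood at 6.85 CPM in HM4 against 8.78 to 10.7 in the other HM libraries.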

How the results depend on the processing

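Of the 31 values that passed, 22 did so under every alternative run and 20 of them also on leaving out each of the 40 libraries in turn; no call changed sign. The number of genes differing among the 4 cuts was 13 to 19 over 12 alternatives (a pair alone gives no such test) and 12 to 16 on leaving out 1 library. The cause of the differences below was not tested. Genes lower in PB than LDM numbered 1 with RLE, upper-quartile scaling, mitochondrial genes out of the scaling, DESeq2, limma-voom, no filter, the pair alone and the 4 libraries left out, and 0 with the length correction, with and without the replicate block. Genes higher in PB than LDM numbered 13 with the length correction and 15 with the block added. Genes higher in TM than LDM numbered 4 with upper-quartile scaling, the length correction, the pair alone and the 4 libraries left out, 5 with the replicate block and 8 with block and length correction. Genes higher in HM than LDM numbered 14 with limma-voom and with block and length correction. For PB against HM, higher genes numbered 4 with RLE, mitochondrial genes out of the scaling and DESeq2, 5 with limma-voom, the replicate block, the length correction and both, and 1 with upper-quartile scaling, no filter and PB1 left out. Lower genes in that pair numbered 1 with RLE, mitochondrial genes out of the scaling, DESeq2, no filter, the length correction and the pair alone, 7 with the replicate block and 5 with the 4 libraries left out. For PB against TM, higher genes numbered 4 with mitochondrial genes out of the scaling and the replicate block, 5 with the length correction, 6 with limma-voom and 7 with block and length correction, and lower genes 1 with mitochondrial genes out of the scaling and with the length correction. On leaving out 1 library the counts ran, higher and lower, over 6 to 9 and 1 to 4 (PB against LDM), 1 to 5 and 0 to 0 (TM against LDM), 7 to 12 and 1 to 1 (HM against LDM), 1 to 5 and 1 to 4 (PB against HM) and 2 to 6 and 1 to 3 (PB against TM). The median log2 change changed sign for PB against TM with block and length correction (0.02) and for TM against HM with upper-quartile scaling (0.01), with the 4 libraries left out, and without any 1 of LDM5, LDM7, LDM9, HM1, HM9, TM3, TM4 or TM8 (up to 0.04). The replicate block lost no call of the 37 genes in any pair. In the 5 pairs other than HM against LDM, 8 or 9 of 10 same-numbered correlations were over 0.1 (medians 0.274 to 0.389). There 5 to 7 of 10 libraries correlated best with their own number. These pairs fall short of the rule used here for pairing, yet the PB against HM median of 0.389 exceeds the 0.316 of HM against LDM. Pairing may thus hold in all 6 pairs, and the main fit has no block in any. With the block 13 genes passed in PB against LDM, 5 in TM against LDM, 12 in PB against HM and 7 in PB against TM. Without it 10, 2, 5 and 4 did. The shares of all genes tested are not given for the alternatives or the fits without 1 library. A rise in these counts may thus not be particular to the NDUF genes. With TMM scaling the medians of all genes tested lay within 0.1 of 0 on the log2 scale. Genes near 1 CPM or below, such as NDUFAF2, rest on few counts, and 3 of the 40 genes could not be tested.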

Other observations

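Genes of NADH supply and of supercomplexes, and regulators of mitochondrial genes, were described from lists of 7 and 16 genes. Of the 7, 4 differed among the 4 cuts (57.1%, level with the 57.2% of all genes tested). In PB against LDM 42.9% of them passed, beside 41.7% of all genes tested. DLD, the dihydrolipoamide dehydrogenase that yields NADH in the pyruvate and oxoglutarate dehydrogenase complexes, ran from 105 to 249 CPM in PB (median 223), 45.5 to 130 in LDM (97.9), 65.9 to 154 in HM (110) and 77.6 to 164 in TM (106). It was higher in PB than in LDM by 1.11 ± 0.17 (edgeR adjusted p = 2.13e-06), than in HM by 0.93 ± 0.17 and than in TM by 0.89 ± 0.17, with ranges that overlap. NNT, the transhydrogenase that uses NADH to make NADPH, rose over LDM by 0.97 ± 0.15 in TM, 0.91 ± 0.15 in PB and 0.90 ± 0.15 in HM. COX7A2L, which joins complexes III and IV in supercomplexes, rose over LDM in HM (0.67 ± 0.14) and TM (0.40 ± 0.14), and in PB it stood at 0.03 ± 0.14.

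Of the 16 regulators, 12 differed among the 4 cuts (75.0%, beside 57.2% of all genes tested), without a common direction. ESRRB, a nuclear receptor of oxidative metabolism genes, ran from 5.02 to 24.1 CPM in LDM and 30.2 to 86.2 in HM, ranges that do not overlap. It rose over LDM by 2.29 ± 0.32 in HM, 1.86 ± 0.32 in TM and 1.58 ± 0.32 in PB. Its relative ESRRA rose most in TM, by 1.52 ± 0.26, with TM libraries spread from 7.95 to 42.2 CPM. The transcription factor YY1 fell over LDM in all 3 cuts, by 0.41 to 0.43 on the log2 scale. PPARGC1A, a coactivator of mitochondrial biogenesis genes, passed in no pair, with an SE of 0.65 in PB against LDM.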
